A study of Mus musculus with 16 samples.

Results

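The abundant Zfp genes are the 200 zinc finger genes with a Zfp-number symbol that had the highest RNA level in mouse embryonic stem cells (mESCs) just before RUVBL2 was degraded. Members were chosen by the mean TPM (the share of transcripts, scaled by transcript length to a fixed library total) of the 2 doxycycline libraries, from 374 genes whose symbol is Zfp followed by a number, Zfp42 and Zfp352 excepted, in a table of 55335 genes. The experiment used V6.5 mESCs in which both copies of Ruvbl2 carry mAID-GFP and an OsTIR1 gene sits behind a doxycycline-inducible promoter, so every condition, Mock included, shares the tagged protein and the construct. Lines came from single clones and were kept on irradiated embryonic fibroblast feeders with LIF, and cells were passaged off the feeders for 2 passages before the experiments. Mock cells received no drug. The 0 h cells received 2 µg/ml doxycycline for 24 h to induce OsTIR1, and the remaining cells then also received 500 µM auxin, which targets RUVBL2 for degradation, during 0.5, 1, 6, 12, 24 or 48 h. Each of the 8 conditions had 2 poly(A) RNA-Seq libraries, 16 in all. These are described both as technical duplicates and as replicates, so p-values measure only the spread between libraries, which may be technical. No library had doxycycline without auxin beyond 0 h, so the time on doxycycline and the time on auxin cannot be told apart.

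RUVBL2 is an AAA+ ATPase that forms a ring with RUVBL1 and serves as a chaperone and as a subunit of chromatin remodelers. Zinc finger proteins form the largest family of DNA-binding proteins in mammals. Most carry arrays of C2H2 fingers, short loops held by a zinc ion, that read DNA. Many also carry a KRAB domain, which recruits TRIM28 (KAP1) and through it the histone methyltransferase SETDB1, and this pathway keeps endogenous retroviruses and imprinted alleles silent in mESCs. KRAB zinc finger genes arose by repeated duplication and lie in clusters of related copies.

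The promoters of 6 members on which the results below turn are printed here, 5 of them from KRAB-like members and that of Zfp346 from a member with no KRAB-like match. RefSeq promoters (GRCm38, 250 bases before to 50 after a start) were found for 163 of the 200 members. The RefSeq start used for Zfp936 lies inside the gene as placed by the annotation (43114229 to 43192109, plus strand), not at its first base. The pentamer CCAAT, read on either strand (ATTGG), was in 69.0% of 87 promoters of KRAB-like members, in 42.7% of 75 promoters of members with no KRAB-like match and in 38.0% of all 27025 promoters. The octamer GAGTGACA (TGTCACTC on the other strand) was in 23% of the promoters of KRAB-like members, 4% of those with no match and 1.66% of all promoters. Both were chosen after the promoters had been read, they can share no more than an end base, and a match is a description, not a binding site. TATAAA, read the same way, was in 3.45% of promoters of KRAB-like members and 14.2% of all promoters. In the sequences below, capitals mark CCAAT and GAGTGACA on either strand.
Zfp936 (chr7:43177340-43177639, plus strand, the member with the largest fall by 24 h): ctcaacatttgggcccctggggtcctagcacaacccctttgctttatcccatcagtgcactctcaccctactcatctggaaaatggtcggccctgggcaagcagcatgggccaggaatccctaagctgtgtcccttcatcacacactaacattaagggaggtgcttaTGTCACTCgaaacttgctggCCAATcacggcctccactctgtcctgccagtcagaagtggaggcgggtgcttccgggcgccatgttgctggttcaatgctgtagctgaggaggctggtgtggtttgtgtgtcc
Zfp931 (chr2:178078376-178078675, minus strand, which rose and fell again between successive times): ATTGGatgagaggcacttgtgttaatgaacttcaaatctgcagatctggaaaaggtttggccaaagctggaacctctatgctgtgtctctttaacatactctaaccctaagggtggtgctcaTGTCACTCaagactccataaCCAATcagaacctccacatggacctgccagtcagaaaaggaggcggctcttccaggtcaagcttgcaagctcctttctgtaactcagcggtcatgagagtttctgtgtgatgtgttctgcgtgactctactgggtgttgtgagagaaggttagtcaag
Zfp932 (chr5:109996260-109996559, plus strand, a retroelement-binding member): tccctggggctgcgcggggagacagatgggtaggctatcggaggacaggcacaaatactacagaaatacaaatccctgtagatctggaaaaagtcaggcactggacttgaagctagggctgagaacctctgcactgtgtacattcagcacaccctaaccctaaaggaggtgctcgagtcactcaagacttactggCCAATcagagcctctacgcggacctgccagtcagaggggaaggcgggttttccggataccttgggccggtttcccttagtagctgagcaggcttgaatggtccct
Zfp979 (chr4:147642459-147642758, minus strand, from the distal chromosome 4 group): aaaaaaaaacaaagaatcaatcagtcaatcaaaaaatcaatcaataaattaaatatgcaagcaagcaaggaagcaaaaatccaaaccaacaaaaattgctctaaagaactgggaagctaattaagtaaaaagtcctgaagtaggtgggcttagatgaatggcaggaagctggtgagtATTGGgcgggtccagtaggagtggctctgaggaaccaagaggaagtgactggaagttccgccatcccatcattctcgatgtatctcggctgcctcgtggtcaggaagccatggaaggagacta
Zfp985 (chr4:147553027-147553326, plus strand, a neighbor of Zfp979): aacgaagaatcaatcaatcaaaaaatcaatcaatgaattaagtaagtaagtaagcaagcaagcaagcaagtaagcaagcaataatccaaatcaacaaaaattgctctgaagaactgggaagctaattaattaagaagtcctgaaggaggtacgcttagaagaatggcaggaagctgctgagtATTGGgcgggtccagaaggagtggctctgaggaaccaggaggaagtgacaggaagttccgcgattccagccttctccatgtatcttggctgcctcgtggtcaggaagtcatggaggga
Zfp346 (chr13:55105059-55105358, plus strand, with no KRAB-like match, the member with the largest rise above Mock): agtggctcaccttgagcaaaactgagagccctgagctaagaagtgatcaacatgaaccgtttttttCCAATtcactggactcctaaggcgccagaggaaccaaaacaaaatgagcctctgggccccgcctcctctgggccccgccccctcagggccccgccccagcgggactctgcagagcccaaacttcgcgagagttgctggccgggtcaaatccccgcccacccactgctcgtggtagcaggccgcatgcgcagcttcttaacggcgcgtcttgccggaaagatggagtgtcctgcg
The neighbors Zfp979 and Zfp985 were 83.9% identical over their whole length in a global alignment. Zfp936 and Zfp932, which lie on different chromosomes, were 63.4% identical, and Zfp936 and Zfp931 58.2%. The other KRAB-like pairs were 45.9 to 51.4% identical, within the range of the pairs with Zfp346, 43.8 to 51.8%.

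Protein sequences translated from the gene annotation were obtained for 197 members. A KRAB-like stretch was found in 100, no such stretch in 97, and a SCAN-like stretch in 4 of the latter. The count of C2H2 fingers had a median of 10 and ran from 0 to 36. KRAB-like members had a median of 12 fingers, and members with no match a median of 7. The pattern is approximate, and a member such as Zfp51, with 19 fingers and no match, may carry a domain it missed. Of the 200 genes, 48 lie on chromosome 7, 26 on chromosome 17 and 20 on chromosome 4. Position clusters, in which each neighbor starts within 200 kb of the next, held 78.0% of the KRAB-like members and 28.9% of those with no match. The split of reads by the estimator is uncertain for Zfp91, which appears under 2 gene IDs, and may be so among the 17 members on distal chromosome 4, whose sequences were not compared here beyond the promoters of Zfp979 and Zfp985.

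At 0 h the level ranged from 6.91 to 478 TPM, with a median of 18.1. Zfp57, which keeps methylation on imprinted alleles, was the most abundant at 478 TPM. It was followed by Zfp106 (an RNA-binding protein, 207 TPM), Zfp207 (a spindle and splicing protein, 180 TPM), Zfp568 (a KRAB repressor of Igf2, 158 TPM), Zfp428 (130 TPM), Zfp990 (124 TPM), Zfp979 (120 TPM), Zfp598 (a ubiquitin ligase that senses collided ribosomes, 109 TPM), Zfp978 (102 TPM) and Zfp710 (100 TPM). The last members inside the limit were Zfp821 at 7.13, Zfp120 at 6.95 and Zfp770 at 6.91 TPM, and the first genes outside it were Zfp184 at 6.88, Zfp688 at 6.86 and Zfp667 at 6.76 TPM. Ranking by Mock instead of doxycycline libraries would have kept 189 of the 200.

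Total counts were 11666732 to 13924958 per library. The 8 pluripotency markers summed to 8319 to 9977 TPM in every library, of which Dppa5a made up 3796 to 5139 TPM. Among the others, Pou5f1 ranged from 1223 to 1477, Sox2 from 309 to 558 and Utf1 from 93.1 to 420 TPM. Of 8 fibroblast markers, Col1a2, Col3a1, Postn, Lum and Dcn reached at most 0.123 TPM and were at 0 in some libraries, and Col1a1 reached 0.558 TPM. The fibroblast list summed to 2.99 to 3.12 TPM in Mock and to 12.2 to 13.5 TPM at 24 h, carried by Thy1 (2.43 to 5.88 TPM) and Pdgfrb (0.355 to 10.1 TPM). Summed TPM of the primitive endoderm list ran from 4.30 to 11.4 and of the trophectoderm list from 51.2 to 117. That of the neural list ran from 110 to 591, highest at 6 h. Krt8 (38.8 to 101 TPM) made up most of the trophectoderm sum and Tubb3 (79.5 to 558 TPM) most of the neural sum. Pax6, Sox1 and Neurod1 reached at most 7.46 TPM. The part of these lists in the results was not tested. Ruvbl2 RNA itself was at 140 and 141 TPM in Mock and at 166 to 204 TPM in all later libraries. The degron acts on the protein, which was not measured in these libraries.

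As a group, the Zfp genes had their highest summed TPM in Mock and their lowest at 24 h. This order depends on the scale. With scaling to reads of the fly genome (dm6), described below, their median log2 fold change against Mock was highest at 1 h (0.35) and lowest at 12 h (-0.49). The summed level of the 200 members was 6963 and 7054 TPM in Mock, 6258 and 6310 at 0 h, 6008 and 6010 after 6 h, 5906 and 5917 after 12 h, 5155 and 5446 after 24 h and 6339 and 6257 after 48 h. The KRAB-like members summed to 3712 and 3780 TPM in Mock, 2165 and 2308 after 24 h and 3074 and 2977 after 48 h, and their 24 h libraries lay below all others. Much of this sum is Zfp57, with a mean of 582 TPM in Mock, 214 after 24 h and 566 after 48 h. The median TPM of KRAB-like members was 18.6 and 19 in Mock, 11.3 and 11.4 after 24 h and 15.3 and 15.3 after 48 h. The sum of members with no KRAB-like match was 3194 and 3227 TPM in Mock and 2959 and 3106 after 24 h. By the mean of its libraries, 79 of the 200 members had their lowest TPM at 24 h, and 84 had their highest in Mock, a description that includes the 0 h libraries. In bulk RNA a smaller share of cells that express a gene and less RNA per cell cannot be told apart.

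**Figure D1:**
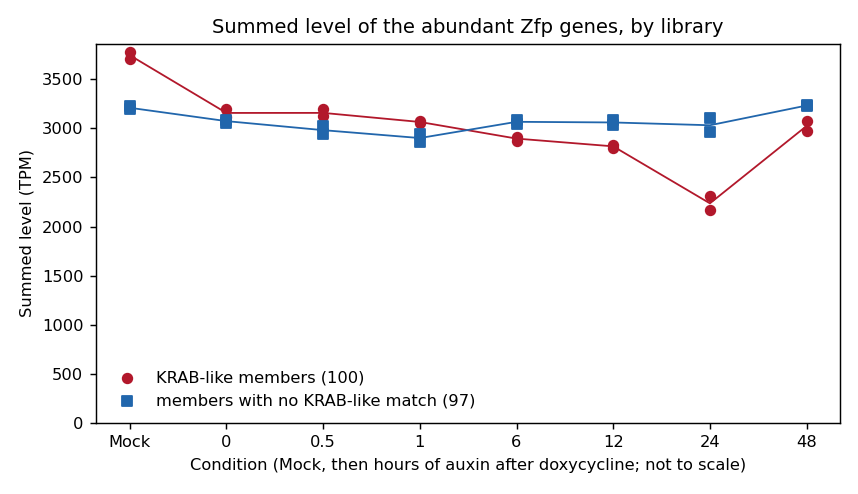
Summed level in TPM (vertical axis, from 0) of the 100 KRAB-like members and of the 97 members with no KRAB-like match, in Mock and at each time of auxin; points are libraries and lines join condition means. The KRAB-like sum is lowest in the 24 h libraries, at 2165 and 2308 TPM, and the other sum stays between 2859 and 3243 TPM. Zfp57 alone has means of 582 TPM in Mock, 214 after 24 h and 566 after 48 h.

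Counts of members past a threshold are given for contrasts without the 2 doxycycline libraries, whose values chose the members. Calls required a fold change over 1.5 and a Benjamini-Hochberg adjusted p under 0.05 in edgeR's quasi-likelihood test across 15155 genes, which held all 200 members. At 0.5 h against Mock, 23 members (11.5%) were lower and 5 (2.5%) higher, where the shares of all genes were 4.86% and 7%. At 1 h, 29 (14.5%) were lower and 3 (1.5%) higher, against 5.59% and 7.38% of all genes. At 6 h, 50 (25%) were lower and 6 (3.0%) higher, against 11.2% and 14.7%. At 12 h, 59 (29.5%) were lower and 11 (5.5%) higher, against 16.2% and 18.3%. At 24 h, 95 (47.5%) were lower and 12 (6.0%) higher, against 22.4% of all genes in each direction. At 48 h, 69 (34.5%) were lower and 18 (9.0%) higher, against 19.4% and 20.5%. With TMM scaling, at every time the share of members called lower was above that of all genes and the share called higher was below it. With dm6 scaling, given below, the order of the shares called lower was the other way at 0.5 and 1 h. These 6 comparisons share the Mock libraries.

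Steps between successive times share libraries with each other and with the comparisons above. From 1 to 6 h, 19 members (9.5%) fell and 12 (6.0%) rose, against 6.59% and 10.4% of all genes. From 6 to 12 h, 21 (10.5%) fell and 14 (7.0%) rose, against 8.83% and 7.92%, shares near the background. From 12 to 24 h, 53 (26.5%) fell and 13 (6.5%) rose, against 10.8% and 8.99%. From 24 to 48 h the direction turned, with 50 members (25%) up and 12 (6.0%) down, against 12.2% and 12.3%. Of the 53 members that fell from 12 to 24 h, 40 rose from 24 to 48 h, and 44 of the 95 that were lower than Mock at 24 h did so too, although these steps share the 24 h libraries. Of those 95, 53 were still lower than Mock at 48 h. Matching counts over all genes called the same way first are not given here. These overlaps are therefore descriptions and do not set the members apart from other genes. Over the 10 comparisons, 158 members (79%) were called at least once, against 71.3% of all genes, and 62 (31%) in both directions, against 24.7%, while 42 were never called. With dm6 scaling 88.5% of members and 89% of all genes were called at least once, shares near each other.

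**Figure D2:**
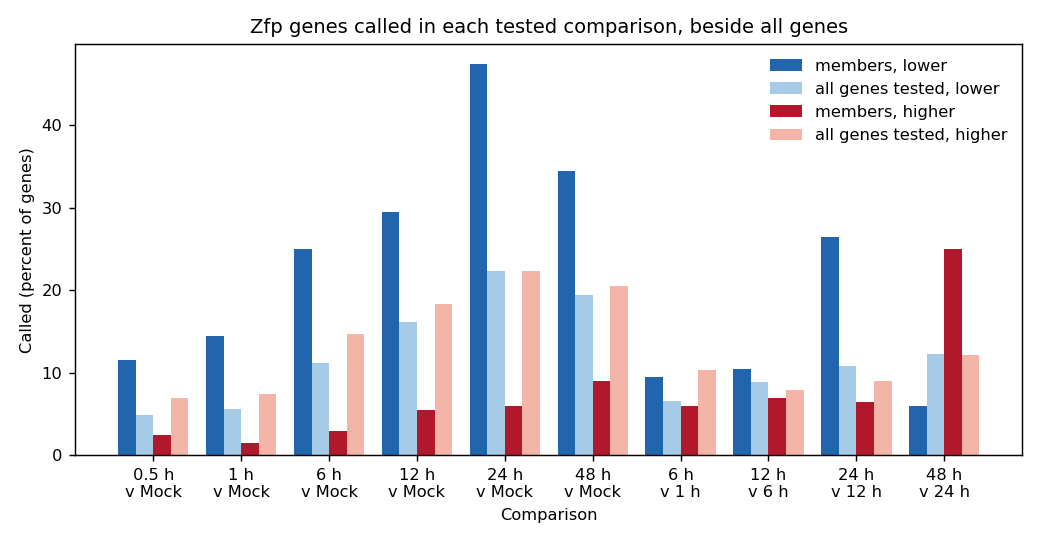
Percent of genes called lower (blue) or higher (red) in each tested comparison, for the 200 members (dark bars) and all 15155 genes (pale bars), with TMM scaling. The dark blue bar is tallest at 24 h against Mock, 47.5% against 22.4%, and the dark red bar is tallest at 48 h against 24 h, 25% against 12.2%; with scaling to dm6 reads these bars are at 37.5% and 26.5%.

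Median log2 fold changes of the members against Mock were -0.19 after 0.5 h, -0.23 after 1 h, -0.29 after 6 h, -0.32 after 12 h, -0.51 after 24 h and -0.29 after 48 h, while the median of all genes stayed between -0.02 and 0.02. Scaling the libraries instead to the reads that the study lists for the fly genome dm6, whose source in these RNA libraries is not given, moved the median of all genes by 0.35 after 0.5 h, 0.58 after 1 h, 0.37 after 6 h, -0.17 after 12 h, 0.18 after 24 h and 0.20 after 48 h. On that scale the members' medians were 0.16, 0.35 and 0.08 at 0.5, 1 and 6 h, so their sign was positive there, and -0.49, -0.33 and -0.09 at 12, 24 and 48 h. Beside each stood a higher median of all genes, 0.34, 0.56, 0.38, -0.16, 0.16 and 0.22. The members were thus below all genes on both scales. This had to be so, since a change of scale moves all genes by about the same amount, and it adds no support. A median below 0 before 12 h was present only with TMM scaling, which holds the median of all genes near 0. The step from 12 to 24 h had a median of -0.15, and of 0.20 with dm6 scaling beside 0.35 for all genes. The step from 24 to 48 h had a median of 0.25, and of 0.27 with dm6 scaling beside 0.02.

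Calls under dm6 scaling shifted with it. At 0.5 h against Mock 1.0% of members were lower and 8.5% higher, against 1.66% and 20.6% of all genes. At 1 h these shares were 0% and 19.0%, against 0.937% and 41.4%. At 6 h 9.0% were lower and 16% higher, against 3.57% and 30.9%. At 12 h 43.0% were lower and 4.0% higher, against 22.6% and 14.1%. At 24 h 37.5% were lower and 13.0% higher, against 17.4% and 28.2%. At 48 h 20% were lower and 14% higher, against 14% and 27.9%. Among the steps, 20% fell and 1.0% rose from 1 to 6 h, against 14.9% and 6.76%. From 6 to 12 h 51.5% fell and 1.0% rose, against 39.8% and 1.48%. From 12 to 24 h 13.0% fell and 23.5% rose, against 4.99% and 25%. From 24 to 48 h 5.0% fell and 26.5% rose, against 11.6% and 12.8%. The surplus of members over all genes among lower calls at 6 to 24 h, and among higher calls from 24 to 48 h, was present under both scalings.

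Against Mock, the median of KRAB-like members was below that of members with no match at each time. Against 0 h the order was the other way at 0.5 h (0.00 and -0.03) and 1 h (-0.02 and -0.09). At 24 h against Mock, where 22.4% of all genes were called in each direction, 60 of 100 KRAB-like members were lower and 2 higher, with a median log2 fold change of -0.70 (quartiles -1.36 and -0.32). Of the 97 members with no match, 33 were lower and 10 higher, with a median of -0.24 (quartiles -0.77 and 0.37). Without the 17 members on distal chromosome 4, 51 of 83 KRAB-like members (61.4%) were lower, with a median of -0.83. The class medians were -0.37 and -0.17 after 6 h, -0.43 and -0.21 after 12 h and -0.46 and -0.09 after 48 h. From 24 to 48 h, when 12.2% of all genes rose and 12.3% fell, 33 KRAB-like members rose and 7 fell with a median of 0.37, and 16 members with no match rose and 5 fell with a median of 0.13. Among KRAB-like members with a promoter, the median at 24 h against Mock was -1.06 for the 20 that hold GAGTGACA and -0.66 for those that do not, and -1.0 and -0.65 for those with and without CCAAT. For members with no match, the medians with and without CCAAT were -0.17 and -0.33, and 0.47 for the 3 with GAGTGACA and -0.31 without it, the opposite order for both motifs. These class differences are descriptions with no test, since members of a class share ancestry and sequence.

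**Figure D3:**
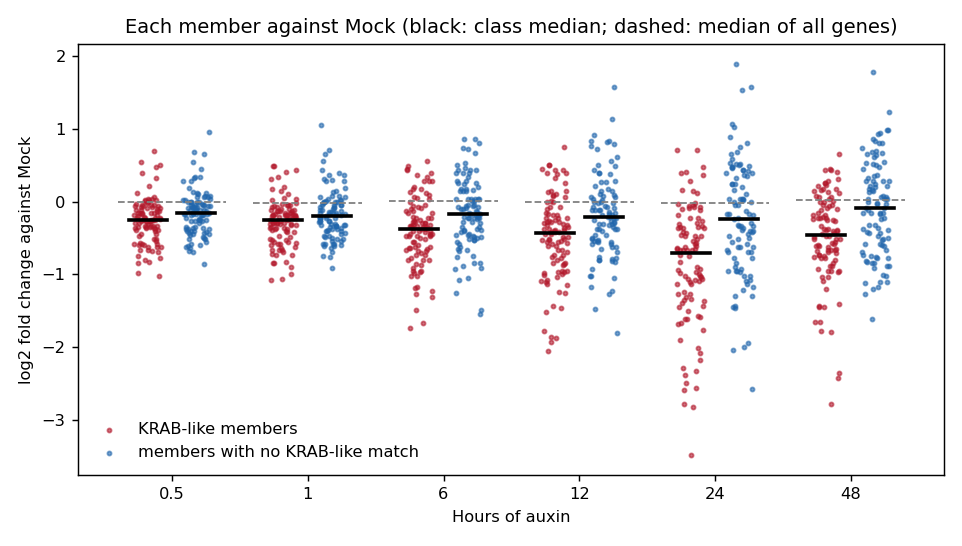
Log2 fold change against Mock (vertical axis) of each member at the 6 times of auxin, KRAB-like members in red and members with no match in blue; black bars are class medians and dashed lines the median of all genes. At 24 h the KRAB-like median is -0.70 and the other median -0.24, on TMM scaling; with dm6 scaling the KRAB-like median is -0.53 after 24 h and 0.10 after 0.5 h.

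At 0 h against Mock, described with no test because these libraries chose the members, the median log2 fold change was -0.19 for the members, -0.29 for KRAB-like members and -0.11 for the others, and 150 of the 200 were below 0. With dm6 scaling the members' median was 0.20 and that of all genes 0.38. Against 0 h, the medians of the members were -0.02 after 0.5 h, -0.04 after 1 h, -0.07 after 6 h, -0.15 after 12 h, -0.34 after 24 h and -0.10 after 48 h. The median at 0 h against Mock was thus the same as at 0.5 h against Mock.

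Members that bind imprinted regions and retroelements were at their lowest at 24 h. With TMM scaling all 5 in the list were called lower than Mock at that time, where 22.4% of all genes were. The change of Zfp568, given below, lies nearer to the log2 fold limit of 0.585 than the dm6 shift of 0.18 at 24 h. All 5 are KRAB-like, a class of which 60 of 100 members were lower then. None of the 5 was called higher than Mock at any time, where 7% to 22.4% of all genes were, depending on the time. Zfp57 (chromosome 17, 37001163 to 37010635) was at 570 and 594 TPM in Mock, 476 and 480 at 0 h, 380 and 374 after 0.5 h, 359 and 350 after 1 h, 297 and 282 after 6 h, 339 and 339 after 12 h, 208 and 220 after 24 h and 571 and 561 after 48 h. Its libraries at 24 h lay below those of every other condition, and those at 48 h were back beside Mock. The log2 fold change was -1.51 ± 0.038 (SE) at 24 h against Mock (edgeR adjusted p = 4.0e-20), 1.45 ± 0.038 from 24 to 48 h (edgeR adjusted p = 3.8e-19) and -0.06 ± 0.036 at 48 h against Mock (edgeR adjusted p = 0.16). Zfp445, which maintains imprints together with Zfp57, was at 67.3 and 65.9 TPM in Mock, 52.6 and 52.7 after 12 h, 31.4 and 32.0 after 24 h and 56.9 and 57.5 after 48 h. It changed by -1.13 ± 0.046 at 24 h against Mock and by 0.89 ± 0.047 from 24 to 48 h (edgeR adjusted p = 1.7e-16 and 1.4e-13).

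Zfp932, a KRAB protein that binds endogenous retroviruses, had 16.3 and 19.3 TPM in Mock, 9.5 and 10.1 after 12 h, 4.13 and 4.06 after 24 h and 9.29 and 7.59 after 48 h. Its change at 24 h against Mock was -2.18 ± 0.15 (edgeR adjusted p = 3.1e-12), and it was still lower than Mock at 48 h, by -1.09 ± 0.13 (edgeR adjusted p = 5.5e-08). Zfp809, which starts the silencing of proviruses, was at 33.1 and 37.2 TPM in Mock, 34.5 and 39.1 after 6 h, 15.8 and 20.1 after 24 h and 21.0 and 21.8 after 48 h. Its log2 fold change against Mock was 0.05 ± 0.095 after 6 h, not past the test, and it was lower by -1.03 ± 0.11 after 24 h (edgeR adjusted p = 1e-08). Zfp568 was at 126 and 130 TPM in Mock, 156 and 161 at 0 h, 185 and 178 after 0.5 h and 79.2 and 89.8 after 24 h. Its 24 h libraries were below Mock, by -0.66 ± 0.042 (edgeR adjusted p = 9.4e-13), while its earlier auxin libraries at 0.5 and 1 h were above it.

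The largest log2 fold changes below Mock at 24 h were those of 3 KRAB-like members. Zfp936 (chromosome 7, 43114229 to 43192109) was at 90.7 and 98.7 TPM in Mock, 48.9 and 52.1 at 0 h, 39.3 and 42.4 after 6 h, 26.7 and 27.6 after 12 h, 8.57 and 8.9 after 24 h and 19.5 and 17.9 after 48 h. Each later condition up to 24 h lay below the one before among these, with no overlap of libraries. It changed by -3.49 ± 0.084 at 24 h against Mock (edgeR adjusted p = 1.2e-20) and stayed at -2.36 ± 0.072 after 48 h. Zfp819 had 64.5 and 61.3 TPM in Mock, 84.0 and 82.0 after 0.5 h, 27.1 and 25.9 after 6 h, 7.99 and 10.4 after 24 h and 24.3 and 23.6 after 48 h. It fell by -1.71 ± 0.085 from 1 to 6 h, the largest fall of that step, and was at -2.83 ± 0.11 against Mock at 24 h (edgeR adjusted p = 1e-16). Zfp760 was at 15.0 and 14.2 TPM in Mock, 2.15 and 2.25 after 24 h and 11 and 8.63 after 48 h. It had the largest rise from 24 to 48 h, 2.19 ± 0.17 (edgeR adjusted p = 1.4e-10), after -2.79 ± 0.16 at 24 h against Mock.

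The KRAB-like members Zfp26 and Zfp948 were lower than Mock at 12, 24 and 48 h, with no rise in the last step. Zfp26 was at 16.8 and 16.6 TPM in Mock, 4.04 and 3.86 after 12 h, 3.33 and 3.60 after 24 h and 3.10 and 3.17 after 48 h. Zfp948 was at 12.0 and 13.3 TPM in Mock, 3.32 and 3.22 after 12 h, 4.54 and 4.06 after 24 h and 1.85 and 1.85 after 48 h. They led the calls at 12 h against Mock, at -2.06 ± 0.089 and -1.93 ± 0.19, and at 48 h, at -2.43 ± 0.093 and -2.78 ± 0.21 (edgeR adjusted p from 4.9e-09 to 1.2e-16). Zfp101, next at 12 h with -1.88 ± 0.14, had 9.34 and 9.30 TPM in Mock and 3.20 and 3.70 after 48 h.

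Early falls were led by Zfp459, Zfp936, Zfp397 and Zfp719, and by Zfp945 and Zfp51 after 6 h. Zfp459 was at 46.2 and 47.4 TPM in Mock, 22.9 and 24.9 at 0 h, 22.3 and 23.7 after 0.5 h, 13.3 and 15.1 after 6 h, 20 and 22.4 after 12 h and 9.13 and 10.8 after 24 h. Its 0.5 h libraries lay beside those of 0 h, and its change at 0.5 h against Mock was -1.03 ± 0.083 (edgeR adjusted p = 8.8e-10). Zfp719 changed by -1.08 ± 0.12 at 1 h against Mock and Zfp397 by -0.86 ± 0.10 after 0.5 h. At 6 h Zfp459 was at -1.74 ± 0.089, Zfp945 at -1.67 ± 0.11 and Zfp51 at -1.54 ± 0.15 against Mock. Part of these falls was present at 0 h against Mock, before auxin, described with no test. There Zfp936 was at -0.94, Zfp719 at -0.71, Zfp397 at -0.46, Zfp945 at -0.40 and Zfp51 at -0.57. Against 0 h, Zfp936 was at -0.04 and Zfp397 at -0.40 after 0.5 h, and Zfp719 at -0.37 after 1 h. With dm6 scaling Zfp397 after 0.5 h and Zfp459, Zfp719 and Zfp936 after 1 h kept their sign but were no longer called.

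**Figure D4:**
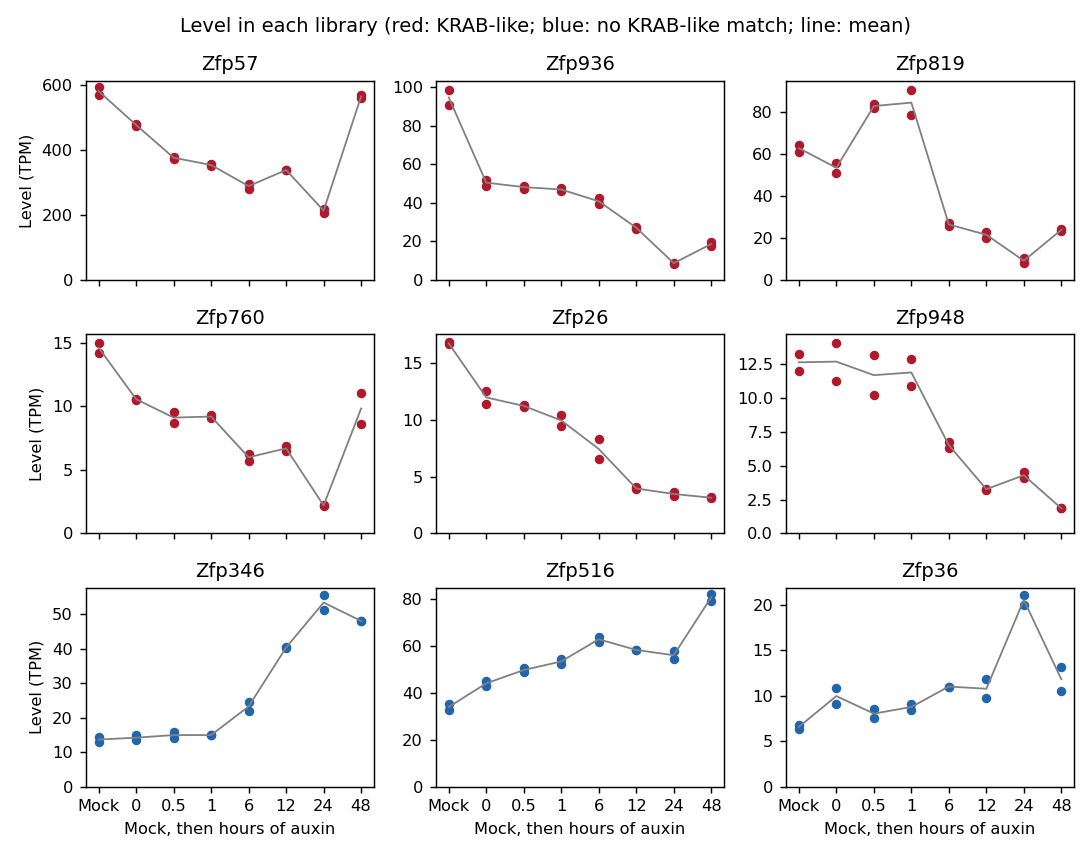
Level in TPM (vertical axes, from 0) of 9 members in each library of Mock and the 7 later conditions; red points are KRAB-like members, blue points members with no match, and lines join condition means. Zfp57 drops to 208 and 220 TPM at 24 h and is back at 571 and 561 after 48 h, Zfp26 and Zfp948 stay low, and Zfp346 rises from 14.3 and 13.1 TPM in Mock to 51.3 and 55.6 after 24 h.

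The 3 largest rises above Mock at 24 h were those of Zfp346, Zfp36 and Zfp444, none with a KRAB-like match, and the first 2 act on RNA. Zfp346, a protein that binds double-stranded RNA, was at 14.3 and 13.1 TPM in Mock, 15.1 and 14.9 after 1 h, 24.7 and 21.9 after 6 h, 40.2 and 40.6 after 12 h, 51.3 and 55.6 after 24 h and 48.0 and 48.2 after 48 h. From 6 h on its libraries lay above all earlier ones. The log2 fold change against Mock was 0.74 ± 0.090 after 6 h, 1.58 ± 0.084 after 12 h, 1.90 ± 0.082 after 24 h and 1.79 ± 0.082 after 48 h (edgeR adjusted p from 2e-07 to 5.3e-16). Zfp36, also called tristetraprolin, which binds AU-rich messages and promotes their decay through fingers of another type, was at 6.35 and 6.8 TPM in Mock, 9.72 and 11.8 after 12 h, 21.1 and 19.9 after 24 h and 10.5 and 13.1 after 48 h. It peaked at 24 h, 1.58 ± 0.14 above Mock (edgeR adjusted p = 3.1e-10), followed by a fall of -0.75 ± 0.13. Zfp444 also had its highest level at 24 h, followed by a fall of -0.80 ± 0.095.

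Other members of the RNA and protein group went both ways. Of its 13 members, 3 were higher and 4 lower than Mock at 24 h, and 5 higher and 1 lower at 48 h. The shares were 23.1% and 30.8% at 24 h, against 22.4% of all genes each way, and 38.5% and 7.69% at 48 h, against 20.5% and 19.4%. Zfp598 rose from 83.1 and 84.6 TPM in Mock to 134 and 145 after 24 h and 147 and 151 after 48 h, 0.81 ± 0.045 above Mock at the last time. Zfp593, which takes part in assembly of the large ribosomal subunit, was at 39.0 and 42.1 TPM in Mock, 65.9 and 69.3 after 12 h, 51.3 and 48.9 after 24 h and 76.7 and 80.7 after 48 h. Zfp638, an RNA- and DNA-binding protein linked to silencing of foreign DNA, went the other way, from 50.8 and 54.1 TPM to 27.1 and 28.9 after 24 h and 23.5 and 20.7 after 48 h (-1.27 ± 0.049, edgeR adjusted p = 1.6e-16). Zfp830, a splicing-associated protein, was at 41.7 and 49.7 TPM in Mock, 20.1 and 21.8 after 24 h and 35.9 and 36.1 after 48 h. Zfp207 was lower than Mock at 24 h by -0.70 ± 0.037. Zfp106 was 0.42 ± 0.038 above Mock, under the fold limit. The lesser of the Zfp91 IDs was called in 3 comparisons, but its libraries at 48 h were at 14.1 and 6.50 TPM.

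Chromatin and transcription factors among the members were called in both directions. Of 18, 3 were higher and 3 lower than Mock at 24 h, and 2 higher and 6 lower at 48 h. The shares were 16.7% each way at 24 h, below the 22.4% of all genes, and 11.1% and 33.3% at 48 h, against 20.5% and 19.4%. Zfp462, which helps keep lineage genes in heterochromatin in mESCs, was at 33.1 and 33.3 TPM in Mock and 21.8 and 22.4 at 0 h. It had 19.6 and 19.7 TPM after 1 h and 12.3 and 11.8 after 6 h. After 12 h it had 20 and 18.7 TPM and after 24 h 15.8 and 18.2. Its lowest libraries were those of 6 h, at -1.49 ± 0.060 against Mock (edgeR adjusted p = 6.9e-16). Zfp281, a regulator of the exit from pluripotency, was at 92.1 and 93.3 TPM in Mock and 74.5 and 66.1 at 0 h. Its libraries were at 56.0 and 55.5 TPM after 6 h, 49.2 and 50.0 after 24 h and 64.8 and 59.9 after 48 h. Zfp143, which binds many promoters, was at 30.4 and 27.4 TPM in Mock, 26.8 and 27.3 after 12 h and 14.5 and 15.1 after 24 h, a drop of -0.95 ± 0.097 within that step. Zfp516, a transcription factor of brown fat, was higher than Mock at 1 h and each later time. It had 32.8 and 35.2 TPM in Mock, 45.1 and 43 at 0 h and 52.4 and 54.4 after 1 h. After 48 h it had 79.2 and 82.3 TPM (1.23 ± 0.045 against Mock, edgeR adjusted p = 5e-17). Zfp217, a component of corepressor complexes, was at 51.8 and 55.2 TPM in Mock and 98.3 and 108 after 24 h.

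Zfp532, a chromatin-bound partner of bromodomain proteins, rose from 12 to 24 h and fell from 24 to 48 h. It was at 26.3 and 28.2 TPM in Mock, 16.6 and 16 at 0 h and 14.5 and 16 after 12 h. After 24 h it was at 30.8 and 34.5 TPM and after 48 h at 12.5 and 13.1. The rise from 12 to 24 h was 1.02 ± 0.062 and the fall from 24 to 48 h -1.30 ± 0.063 (edgeR adjusted p = 2e-12 and 3.7e-14). Zfp213 was called the same way in these steps, with 16.5 and 18.8 TPM at 12 h, 38.0 and 41.3 after 24 h and 18 and 15.7 after 48 h, and so did Zfp941, with 4.66 and 3.02, 10.2 and 10.7, and 3.78 and 3.23 TPM. These 3 led both the rises from 12 to 24 h and the falls from 24 to 48 h. Zfp931 was called the other way in its step from 12 to 24 h, with 5.71 and 5.59 TPM at 6 h, 11.9 and 13.7 after 12 h, 2.98 and 3.67 after 24 h and 10.1 and 8.43 after 48 h. Its step from 12 to 24 h was -2.02 ± 0.19, the largest fall of that step (edgeR adjusted p = 4.9e-09).

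Of the 2 developmental regulators in the group, Zfp292 was lower than Mock at 6, 24 and 48 h. It was at 82.8 and 86.6 TPM in Mock, 53.3 and 54.2 after 6 h, 63.1 and 66.1 after 12 h, 33.7 and 37.8 after 24 h and 47.7 and 48.2 after 48 h, with -1.30 ± 0.044 at 24 h against Mock (edgeR adjusted p = 7.1e-18). Zfp609, at 20.5 and 19.4 TPM in Mock and 15.8 and 19.7 after 24 h, was called once, as higher from 6 to 12 h.

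The remaining members that led a comparison were these. Zfp367 was higher than Mock at 0.5 h (0.96 ± 0.076) and 1 h (1.06 ± 0.076), with 19.0 and 19.2 TPM in Mock, 39.6 and 35.2 after 0.5 h and 40.9 and 38.4 after 1 h, and it fell by -1.23 ± 0.077 from 1 to 6 h. Zfp655 was higher by 0.65 ± 0.056 after 0.5 h and 0.71 ± 0.056 after 1 h, and the first of these was not called without 0.5 h replicate 1. Zfp185, which despite its name is a LIM-domain actin-binding protein, was higher by 0.68 ± 0.12 after 0.5 h and 0.86 ± 0.11 after 6 h. Already at 0 h against Mock, before auxin, Zfp185 was at 0.69, Zfp367 at 0.53 and Zfp655 at 0.43, described with no test. Zfp444 rose from 8.45 and 9.56 TPM in Mock to 28.4 and 26.1 after 24 h, and Zfp395 from 8.54 and 9.46 to 16.1 and 20 after 48 h. From 1 to 6 h the largest rises were those of Zfp626 (0.89 ± 0.089), Zfp839 (0.81 ± 0.11) and Zfp704 (0.77 ± 0.051). From 6 to 12 h Zfp931 (1.22 ± 0.17), Zfp395 (1.14 ± 0.12) and Zfp652 (0.97 ± 0.057) rose most, and Zfp105 (-1.06 ± 0.12), Zfp941 (-1.01 ± 0.18) and Zfp948 (-0.95 ± 0.21) fell most. From 24 to 48 h Zfp422 rose from 3.10 and 4.42 to 13.1 and 12.3 TPM and Zfp986 from 2.51 and 2.31 to 8.28 and 7.95 TPM. Zfp704 from 1 to 6 h and Zfp652 from 6 to 12 h were not called with dm6 scaling.

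Within clusters the calls were mixed. The largest, with 9 members each, lie on chromosome 4 (146971976 to 147809788) and chromosome 7 (29768552 to 30169750). On chromosome 4, Zfp988 (-1.45), Zfp534 (-1.44), Zfp985 (-1.11), Zfp989 (-1.06) and Zfp982 (-0.61) were lower than Mock at 24 h, and Zfp979 (-0.51), Zfp984 (-0.47), Zfp978 (-0.23) and Zfp991 (0.47) were not called. Zfp979 and Zfp985, whose promoters are printed above, were at 134 and 134 and at 73.9 and 70.3 TPM in Mock, and at 95.5 and 101 and at 34.8 and 34.8 TPM at 24 h. On chromosome 7, Zfp260 (-1.47), Zfp74 (-0.83), Zfp568 (-0.66), Zfp566 (-0.65) and Zfp84 (-0.62) were lower at 24 h, Zfp383 was higher (0.71), and Zfp382 (-0.36), Zfp146 (-0.33) and Zfp790 (-0.09) were not called. From 24 to 48 h, 4 of the 9 on chromosome 4 rose, and none of the 9 on chromosome 7 did, where 12.2% of all genes rose. A cluster of 7 on chromosome 17 had the lowest median at 24 h among clusters of 4 or more members, -1.45, with 6 lower. Over all clusters, 60 of 107 clustered members (56.1%) and 35 of 93 other members (37.6%) were lower at 24 h, against 22.4% of all genes, with medians of -0.65 and -0.24.

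The partners of the KRAB proteins are described by their counts, with no test against other genes. Of 32 genes of the TRIM28 pathway, 12 (37.5%) were called in at least 1 of the 10 comparisons, against 71.3% of all genes. At 24 h against Mock 2 (6.25%) were higher and 4 (12.5%) lower, where 22.4% of all genes were called in each direction, with a median log2 fold change of -0.12. Trim28, the corepressor itself, was at 1307 and 1286 TPM in Mock, 1042 and 1105 after 1 h, 1250 and 1237 after 24 h and 1209 and 1279 after 48 h. Setdb1 was at 83.2 and 83.7 TPM in Mock, 95.0 and 96.1 after 24 h and 111 and 111 after 48 h. Neither was called in any comparison. Atrx, a remodeler that works at silent repeats, fell from 76.8 and 78.1 TPM in Mock to 35.1 and 41.2 after 24 h (-1.08 ± 0.050, edgeR adjusted p = 2.3e-15). After 48 h it was at 59.6 and 54 TPM. It was then called higher than at 24 h (0.62 ± 0.051) and was not called against Mock (-0.47 ± 0.049). Mta1, a subunit of the NuRD complex, rose from 58.0 and 52.2 to 110 and 122 TPM (1.01 ± 0.065, edgeR adjusted p = 1.2e-12). Ehmt2, an H3K9 methyltransferase, was at 38.7 and 41.0 TPM in Mock and 93.5 and 96.7 after 12 h, 1.27 ± 0.058 above Mock (edgeR adjusted p = 5.4e-15). Smarcad1, a remodeler that binds TRIM28, was at 60.9 and 61.6 TPM in Mock and 31.7 and 36.7 after 24 h (-0.90 ± 0.047, edgeR adjusted p = 1.8e-14). With dm6 scaling 62.5% of the pathway genes and 89% of all genes were called at least once, and at 24 h against Mock 6.25% were higher and 9.38% lower, where 28.2% and 17.4% of all genes were.

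As a description, the genes outside the family whose mean log2 CPM over the 8 conditions was most like the mean standardized profile of the members were 3222401L13Rik (Pearson r = 0.9942), Rdx (0.9937), Amer1 (0.9761), Gm48035 (0.9757) and Cr1l (0.9751). In units of each gene's SD over the conditions, that profile was 0.67 in Mock, 0.13 at 0 h, -0.01 after 6 h, -0.19 after 12 h, -0.67 after 24 h and -0.01 after 48 h. For the KRAB-like members it was 0.92 in Mock and -1.04 after 24 h.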

How the data were processed

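RNA-Seq of 16 libraries was analysed, 2 for each of 8 conditions taken from the sample labels. Per the study's methods and the submitters' processing notes, reads were trimmed with cutadapt 1.18 and aligned with STAR 2.7.3a to mm10, duplicates were removed and genes were quantified with RSEM 1.3.1 on a GENCODE annotation. No source used here states whether counting used strand. The authors deposited expected counts, which are not normalized, and TPM values, which RSEM scales by length and library. A further deposited table holds the authors' comparisons (DESeq2 1.24.0 fold changes and p-values) and was not used.

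Expected counts were rounded, genes filtered with filterByExpr, and all 16 libraries fitted in 1 model with edgeR 4.0.16 (TMM, quasi-likelihood, 8 residual degrees of freedom) in R 4.3.3. P-values were Benjamini-Hochberg adjusted over 15155 genes, and calls required a fold change over 1.5 with an adjusted p under 0.05. The fit was tested on simulated data. Total counts of 11666732 to 13924958 per library set the precision, and libraries of a condition differed by more than sampling noise. Contrasts with the doxycycline libraries, whose TPM chose the members, were described only. Fold changes in log2 are from the counts, levels are TPM.

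Members and lists were chosen with earlier results of these data known. Named members are the 10 most abundant, the 3 with the largest change each way per comparison among those called whose libraries do not overlap, up to 6 per role list, up to 4 TRIM28 pathway genes with Trim28 and Setdb1, the neighbors of the limit of 200, the largest clusters and the 5 genes of most like profile. Role lists held genes for imprints and retroelements, chromatin and transcription, RNA and protein, and development. KRAB-like (a fixed amino acid pattern) and finger counts were read from coding sequences of a GENCODE GRCm38 annotation translated here, since no protein table was used, and positions come from that annotation.

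Alternatives were DESeq2 1.42.0 with its size factors, limma 3.58.1 on log2(TPM + 1) and log2(TPM + 0.1), edgeR with RLE factors or dm6 reads, no filter, a replicate block, each library left out, members ranked by Mock, all Zfp genes, and, chosen after seeing the data, no members from distal chromosome 4.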

Additional observations from a re-analysis of the deposited data

How the results depend on the processing

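The share of members called kept within 1.5 times of its value under most settings. Scaling to dm6 reads moved it most. The share called higher, in the order of 0.5, 1, 6, 24 and 48 h against Mock, went to 8.5, 19.0, 16, 13.0 and 14%, and the share called lower at 0.5, 1, 6 and 48 h to 1.0, 0, 9.0 and 20%. For the steps from 1 to 6 h, 6 to 12 h and 12 to 24 h, the shares higher were 1.0, 1.0 and 23.5%, and the shares lower 20, 51.5 and 13.0%. The TRIM28 pathway share called at least once went from 37.5 to 62.5%. This follows from the median shifts given above. With limma on log2(TPM + 1) or log2(TPM + 0.1), 1.5% instead of 2.5% were higher at 0.5 h against Mock. Over all Zfp genes tested, 19.0% were lower at 0.5 h against Mock and 9.20% fell from 24 to 48 h. Other settings, including DESeq2, RLE factors, no filter, ranking by Mock and no distal chromosome 4 members, moved no share by more than 1.5 times.

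With each library left out in turn, the shares of members were 10 to 12.5% lower and 1.5 to 3.0% higher at 0.5 h against Mock, 11.5 to 17.5% lower and 1.5 to 2.5% higher at 1 h against Mock, 24.5 to 26.5% lower and 3.0 to 3.5% higher at 6 h against Mock, 30 to 33.5% lower and 5.0 to 6.0% higher at 12 h against Mock, 45.5 to 48.5% lower and 6.0 to 6.5% higher at 24 h against Mock, 32.0 to 37.5% lower and 8.5 to 9.5% higher at 48 h against Mock. For the steps they were 9.0 to 11% lower and 4.5 to 6.5% higher at 6 h against 1 h, 9.5 to 12.0% lower and 6.5 to 7.5% higher at 12 h against 6 h, 23 to 26.5% lower and 6.0 to 8.5% higher at 24 h against 12 h, 6.0 to 7.0% lower and 23 to 29.0% higher at 48 h against 24 h. The share of TRIM28 pathway genes called was 34.4 to 37.5%. The share higher at 0.5 h against Mock was 1.5% without Mock replicate 1 or 0.5 h replicate 2, and at 1 h it was 2.5% without 1 h replicate 2.

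Replicate numbers did not pair the libraries: deviations of same-numbered libraries correlated between -0.0795 and 0.0573 over 28 pairs of conditions. With a replicate block, 47.5% of members were lower at 24 h against Mock, as without it, and 6.0% instead of 6.5% rose from 12 to 24 h, and no other share changed. Of 60 log2 fold changes of leading members, none changed sign under 1380 alternative values and 7 lost their call, 6 of these with dm6 scaling. These 60 had been chosen as past the log2 fold limit of 0.585, and the largest median shift with dm6 reads was 0.582. A change of sign with dm6 scaling was thus hardly possible, and its absence is no support. With 2 libraries a condition, small shares of called members rest on few genes (3 members at 1 h, higher).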
